A study of Homo sapiens with 8 samples.

Results

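Accessible chromatin was compared between cisplatin-resistant and control A2780 cells over 158698 of the 159451 consensus peaks deposited for the whole series, those with at least 1 CPM (reads in the peak scaled to a common total of reads in peaks) in at least 2 of the 8 libraries. A2780 is an established human ovarian cancer cell line. The 4 groups of 2 libraries are labelled wild type in genotype and differ in treatment. They are control cells with no treatment listed, cells resistant to cisplatin, cells resistant to paclitaxel, and cells resistant to both drugs (dual-resistant). The comparison rests on 4 libraries, 2 control and 2 cisplatin-resistant, and the other 4 enter the same fit, where they share in the estimate of the spread and in the level filter and are set beside the first in contrasts of their own. The sources used here do not say whether drug was present at collection. Each resistant population is a single line, so differences between it and the control line cannot be told apart from differences between any 2 sublines. No label ties the libraries to separate cultures, and the p-values measure a spread between libraries that may be technical only.

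Cisplatin enters cells partly through copper transporters, is bound by glutathione and metallothioneins, and forms crosslinks between neighbouring purines of DNA. Crosslinks are removed by nucleotide excision repair, the Fanconi pathway and homologous recombination. In ATAC-seq the transposase Tn5 cuts DNA that is free of nucleosomes, and the number of fragments over a region measures how open it is. Tn5 was added to isolated nuclei, and libraries were indexed and amplified by PCR.

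Upstream sequences of 7 genes are shown first, as examples of promoters that rose. Each is the 250 bases before a RefSeq transcription start on GRCh38.p14, read 5′ to 3′ on the strand of the gene. The first 3 belong to promoters that were almost shut in control cells and open in cisplatin-resistant cells. Capitals mark CG dinucleotides, the sites at which DNA can be methylated. The runs are LEKR1 at chr3:156826353-156826602 on the plus strand, and the zinc finger genes ZNF454 at chr5:178941198-178941447 on the plus strand and ZNF432 at chr19:52048589-52048838 on the minus strand. They hold 29, 23 and 14 CG dinucleotides. Their CpG content, observed over expected, was 1.01, 0.899 and 0.780, above the median of 0.506 for promoters at least 2-fold higher. ZNF454 and ZNF432 reached 1 CPM in 2 libraries only through the cisplatin-resistant ones, so the level filter largely set the direction of their difference.
LEKR1: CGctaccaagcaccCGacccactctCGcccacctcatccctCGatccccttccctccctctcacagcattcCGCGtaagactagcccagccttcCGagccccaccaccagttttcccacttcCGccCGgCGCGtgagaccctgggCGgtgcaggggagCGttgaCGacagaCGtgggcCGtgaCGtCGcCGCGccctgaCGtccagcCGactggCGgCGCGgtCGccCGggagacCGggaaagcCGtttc
ZNF454: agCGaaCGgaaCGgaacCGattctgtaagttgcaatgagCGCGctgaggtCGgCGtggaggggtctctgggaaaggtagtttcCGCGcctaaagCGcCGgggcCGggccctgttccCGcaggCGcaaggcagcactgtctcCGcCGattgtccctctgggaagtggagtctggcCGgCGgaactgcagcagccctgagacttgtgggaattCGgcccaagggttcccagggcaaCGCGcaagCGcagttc
ZNF432: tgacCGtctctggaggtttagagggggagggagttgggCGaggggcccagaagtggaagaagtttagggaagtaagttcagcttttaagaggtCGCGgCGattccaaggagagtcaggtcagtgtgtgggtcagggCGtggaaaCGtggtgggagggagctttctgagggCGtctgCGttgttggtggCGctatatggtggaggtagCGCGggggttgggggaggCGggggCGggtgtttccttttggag

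The other 4 promoters also rose, and each holds the letters TGANTCA, the core that the AP-1 transcription factor binds, here in capitals (either strand, N for any base). They are HRH1 at chr3:11137238-11137487 on the plus strand, SFN at chr1:26863149-26863398 on the plus strand, F2RL2 at chr5:76623154-76623403 on the minus strand and ANKRD1 at chr10:90920838-90921087 on the minus strand. The match lies 71, 170, 37 and 195 bases before the start. F2RL2 and ANKRD1 were chosen for display after their values were seen. A match describes the letters and is not evidence of binding.
HRH1: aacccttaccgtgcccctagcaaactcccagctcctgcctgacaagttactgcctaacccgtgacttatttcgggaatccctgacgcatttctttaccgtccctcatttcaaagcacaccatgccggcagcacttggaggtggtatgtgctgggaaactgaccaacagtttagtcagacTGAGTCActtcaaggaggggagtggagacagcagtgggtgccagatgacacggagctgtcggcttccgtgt
SFN: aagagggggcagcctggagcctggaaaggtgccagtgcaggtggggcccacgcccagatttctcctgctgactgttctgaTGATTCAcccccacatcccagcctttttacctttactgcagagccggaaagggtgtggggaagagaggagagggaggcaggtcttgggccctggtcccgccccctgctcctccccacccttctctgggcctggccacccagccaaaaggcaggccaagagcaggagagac
F2RL2: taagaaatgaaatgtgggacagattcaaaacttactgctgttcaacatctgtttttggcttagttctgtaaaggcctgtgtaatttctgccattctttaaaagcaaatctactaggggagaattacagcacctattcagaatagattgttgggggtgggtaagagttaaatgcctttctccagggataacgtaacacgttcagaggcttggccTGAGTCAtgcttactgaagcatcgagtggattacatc
ANKRD1: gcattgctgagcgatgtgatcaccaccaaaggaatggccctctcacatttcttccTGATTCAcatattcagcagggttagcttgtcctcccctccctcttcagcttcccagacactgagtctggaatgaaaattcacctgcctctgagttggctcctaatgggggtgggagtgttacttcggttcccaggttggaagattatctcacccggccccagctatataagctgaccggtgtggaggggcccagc

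Depth was 7693492 and 7769112 reads in peaks in the control libraries and 8885297 and 8552256 in the cisplatin-resistant libraries, within a range of 7693492 to 9304798 over all 8. A count of 3 reads, the limit that a count of 0 allows, corresponds to 0.338 to 0.39 CPM in these 4 libraries, and covers counting error only because PCR reads are not independent molecules. Across peaks, log2 levels correlated at 0.9275 within control and 0.926 within cisplatin-resistant libraries. The correlation was 0.658 to 0.671 between the groups. Of 8 ovarian and epithelial markers, 5 had a gene peak, and their summed level was 26.4 and 26.5 CPM in control and 30.0 and 32.2 CPM in resistant libraries. EPCAM, an epithelial surface gene, stood at 13.7 and 11.4 CPM in the group means and CDH1, which encodes E-cadherin, at 1.29 and 0.864 CPM. Both peaks lie at an end of the gene span that may not be the start, with the EPCAM peak 787 bp outside it. The peaks of the epithelial markers were thus not uniformly open, and the openness of the EPCAM and CDH1 promoters is not known from them. PAX8, the Müllerian lineage factor, rose from 0.78 and 1.29 to 4.28 and 3.74 CPM (log2 difference 1.57, adjusted p = 0.00293 by limma), with no call when control library 1 was left out. WT1, MUC16 and CDH6 had no tested gene peak. In bulk libraries, fewer cells with an open site and a less open site in each cell cannot be told apart.

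By limma with Benjamini-Hochberg adjustment, 52757 of the 158698 peaks differed from control (33.2%), with 29093 higher (18.3%) and 23664 lower (14.9%). A difference of at least 2-fold, meaning at least 1 on the log2(CPM + 0.5) scale, was held by 25715 of the higher (16.2% of all) and 12537 of the lower peaks (7.9%). The balance turned to 27158 higher and 29533 lower with quantile scaling and to 15165 and 17678 with a filter of 5 CPM. Both resistant libraries lay above both control libraries at 29.8% of peaks and below them at 34.5%. The median difference over all peaks was -0.09. Higher peaks had changed by more, with a median log2 difference of 1.77 against -1.03 for lower ones. In all, 11493 were at least 4-fold higher and 1533 at least 4-fold lower. The tested set itself leaned towards the resistant line. Of the tested peaks, 10225 (6.44%) reached the level filter only through cisplatin-resistant libraries, and 9172 of these were called higher and 0 lower, whereas 905 (0.57%) reached it only through control libraries. By their names, 34.2% of tested peaks came from a peak call in a cisplatin-resistant library and 3.17% from one in a control library. Of the 29093 higher peaks, 26552 carried such a cisplatin-resistant name.

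Promoters leaned to lower calls and peaks inside and outside genes to higher ones, a contrast that went with peak level. Of 15994 promoter peaks, within 1 kb of a RefSeq transcription start, 1446 were higher and 4172 lower (median -0.20). Inside genes, 14242 of 73676 peaks were higher and 8746 lower (median -0.02), and outside genes 12661 of 63481 were higher and 9636 lower (median -0.09). Among peaks with a mean of 5 to 10 CPM in the paclitaxel- and dual-resistant libraries, each kind leaned lower, with 146 higher and 771 lower at promoters, 671 and 2178 inside genes and 689 and 2324 outside genes. Among those of 1 to 2 CPM each leaned higher, with 207 and 44, 3980 and 816, and 2893 and 943. For statements about genes, each gene was given its gene peak, the strongest tested peak within 1 kb of its start or, where the start was not listed, of either end of its span. Of 15279 genes with such a peak, 39.4% were called, 10.8% higher and 28.6% lower, and the median was -0.19. The lean to lower calls lay in differences under 2-fold and moved with scaling. Changes of at least 2-fold numbered 725 higher (4.75%) and 774 lower (5.07%), and the gene-peak median went from -0.19 to -0.08 with median-ratio and -0.02 with loess scaling, which called 2510 higher and 2046 lower. Large changes were mostly gains, with 85 gene peaks at least 8-fold higher and 8 at least 8-fold lower. Both resistant libraries lay above both control libraries at 19.5% of gene peaks and below them at 51.4%. The counts below are therefore given at 2-fold or more where direction matters, and read beside these shares. Of the 725 gene peaks at least 2-fold higher, 150 reached the level filter only through cisplatin-resistant libraries. Gene lists other than the zinc finger genes were not counted without such peaks, so their shares of gains carry this limit.

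**Figure D1:**
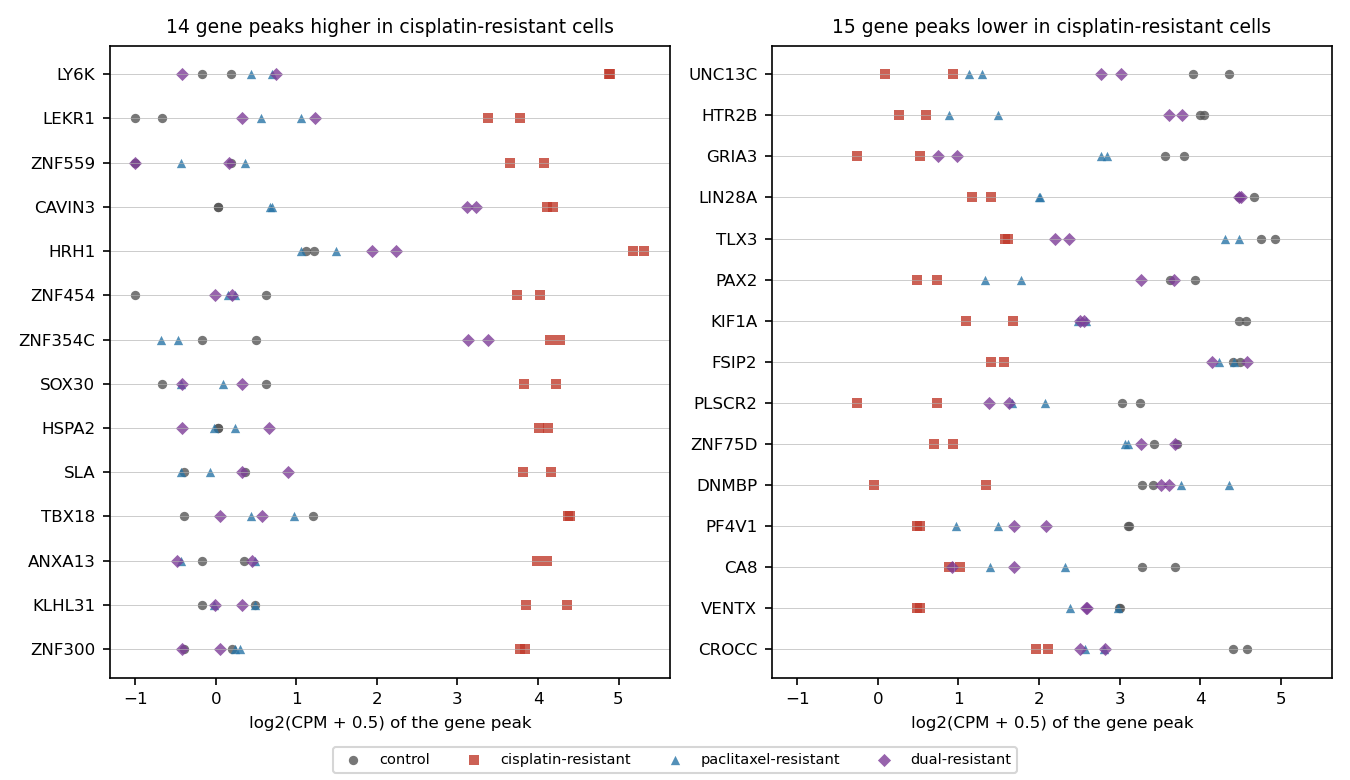
Level of the gene peaks with the largest differences, as log2(CPM + 0.5) on the horizontal axis, with 1 point for each of the 8 libraries and the 4 groups in different symbols. Control and cisplatin-resistant points do not overlap at any of the 14 higher (left) and 15 lower (right) genes, which the choice of genes required.

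Of the 16 higher and 16 lower gene peaks with the largest differences, 14 and 15 are reported here. Chosen among those with separate libraries and at least 5 CPM in the higher group, they describe how far the 2 lines had moved. The higher ones differed by 3.90 to 4.87 on the log2 scale and the lower ones by -2.46 to -3.63. HRH1, the histamine receptor gene, had 1.82 and 1.67 CPM in control and 39.5 and 35.8 CPM in resistant libraries (4.08 ± 0.28, SE). The peak stayed low in the other resistant lines, with means of 1.94 CPM in paclitaxel-resistant and 3.77 CPM in dual-resistant cells. TBX18, a T-box factor of embryonic mesenchyme, had 0.26 and 1.80 CPM in control and 20.6 and 20.2 CPM in resistant libraries (3.98 ± 0.41). HSPA2 and SOX30, genes known from male germ cells, rose from 0.52 and 0.515 to 16.9 and 15.7 CPM and from 1.04 and 0.129 to 13.7 and 18.1 CPM. LEKR1 stood at 0.13 and 0 CPM in control, below the level of 3 reads, and at 13.2 and 9.94 CPM in resistant libraries (4.41 ± 0.44). CAVIN3, which encodes a coat protein of caveolae, rose from 0.52 and 0.515 to 17.7 and 16.7 CPM (4.12 ± 0.32).

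The others reported were LY6K, ANXA13, the adaptor gene SLA, KLHL31 and the zinc finger genes ZNF559, ZNF454, ZNF354C and ZNF300. The same groups that chose these genes give their p-values, so the adjusted p-values, at most 3.02e-12 for ZNF300 by limma, describe the spread and are no further support. CAVIN3 and ZNF354C were also open in the dual-resistant line at intermediate levels, 8.54 and 9.09 CPM in the group means, and near background in the paclitaxel-resistant line, 1.11 and 0.173 CPM.

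Lower gene peaks held several receptor and developmental genes. HTR2B, a serotonin receptor gene, fell from 15.5 and 16.1 CPM to 1.01 and 0.702 CPM (-3.59 ± 0.29, SE). GRIA3, a glutamate receptor subunit gene, fell from 11.3 and 13.4 to 0.338 and 0.935 CPM (-3.55 ± 0.34), with the first resistant library at the level of 3 reads. No resistant library reached a control library at either gene, as the choice of genes required. FSIP2, a gene of the sperm tail sheath, fell from 20.8 and 22 to 2.14 and 2.46 CPM (-2.97 ± 0.19). DNMBP, which encodes a scaffold for regulators of the cytoskeleton, fell from 9.23 and 10.2 to 2.03 and 0.468 CPM (-2.70 ± 0.26). VENTX, a homeobox gene, fell from 7.54 and 7.47 to 0.9 and 0.935 CPM (-2.50 ± 0.30). These last 3 genes stood at 19.7, 16.5 and 6.08 CPM in paclitaxel-resistant and 20.3, 11.4 and 5.52 CPM in dual-resistant cells, nearer to control than the cisplatin-resistant level.

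The resistant lines could be set beside each other in the same fit. Between cisplatin-resistant and dual-resistant cells 41.8% of all peaks were called by limma, 19.9% higher and 21.9% lower in cisplatin-resistant cells, and 35.9% of gene peaks, 16.8% higher and 19.1% lower. Median-ratio scaling turned the balance over all peaks, from 31534 higher and 34800 lower to 37270 higher and 24998 lower. Against paclitaxel-resistant cells 38.7% of peaks were called, 23.4% higher and 15.3% lower, and 47.7% of gene peaks, 13.1% higher and 34.6% lower. Of the 14 higher genes reported above, 14 were also higher than in the dual-resistant line and 14 than in the paclitaxel-resistant line. Of the 15 lower genes, 13 were lower than in the dual-resistant line, with GRIA3 and CA8 not called, and 13 were lower than in the paclitaxel-resistant line. These contrasts share the cisplatin-resistant libraries by which the genes were chosen, so the counts describe the line and do not add support. ZNF559, ZNF300 and ZNF454 also reached 1 CPM in 2 libraries only through the cisplatin-resistant ones, so the level filter largely set their direction.

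Among genes that handle platinum, large gains were about as common as over all gene peaks (4.75%). Of 20 transporter and copper genes with a peak, 1 was at least 2-fold higher (5%) and 0 lower. STEAP4, a metalloreductase gene, rose from 0.91 and 0.257 to 4.95 and 2.57 CPM (1.99 ± 0.47, adjusted p = 0.000349 by limma). ATP7A, which encodes a copper exporter, fell from 19.2 and 19.2 to 10.9 and 11.8 CPM (-0.73 ± 0.17, adjusted p = 0.000242 by limma). The copper importer gene SLC31A1 had 57.3 and 53.7 CPM in control and 51.7 and 50.6 CPM in resistant libraries (-0.12, adjusted p = 0.395 by limma). ATP7B and ABCC2 had no tested gene peak. In the glutathione and NRF2 list 2 of 30 were at least 2-fold higher and 0 lower. They were GSTM3, a glutathione transferase gene, at 0.52 and 1.29 against 8.33 and 6.55 CPM (2.55), and TXNRD1, the thioredoxin reductase gene, at 0.26 and 1.42 against 6.08 and 5.50 CPM (2.38). A gene peak stands for 1 site of its gene, and other promoters of GSTM3 or TXNRD1 were not examined. GSTP1, the glutathione transferase most studied in platinum resistance, was not called (-0.17, adjusted p = 0.397 by limma). Of 8 metallothionein genes, which bind metals, MT1E rose from 1.95 and 4.25 to 13.1 and 10.6 CPM (1.85) and MT3 fell from 5.59 and 4.76 to 1.24 and 2.46 CPM (-1.32, with no call when cisplatin-resistant library 1 was left out). Metallothionein genes are close copies of each other, so reads may be split between them.

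Among 42 genes of crosslink, excision and homologous repair, 0 changed by 2-fold or more, 5 were higher (11.9%) and 9 lower (21.4%) by limma, beside 10.8% and 28.6% over all gene peaks. The 5 higher were the helicase genes BRIP1 (0.59) and ERCC6 (0.49), RAD51C (0.47), NBN (0.46) and the damage sensor gene XPC (0.41). The lower ones included RAD51D (-0.70) and PALB2 (-0.60), both partners in homologous recombination. The balance of these small calls turned with scaling, and loess scaling gave 11 higher and 3 lower. BRCA1 had 60.2 and 50.3 CPM in control and 70.7 and 55.5 CPM in resistant libraries, and the groups overlapped (0.19 ± 0.11, adjusted p = 0.173 by limma), with a call under 4 other scalings (0.27 to 0.33). ERCC1, whose product cuts the damaged strand, was called lower by a small margin (-0.27, adjusted p = 0.0284 by limma), and the call was lost under 4 other scalings and when any of the 4 libraries was left out, and its sign turned after subtraction of regional (0.024) or chromosome (0.00295) medians. SLFN11, whose product sensitises cells to DNA-damaging drugs, stood at 3.64 and 3.35 against 6.08 and 5.73 CPM and was not called (0.68 ± 0.37, adjusted p = 0.147 by limma), with a call after regional medians were subtracted (0.93, adjusted p = 0.0469 by limma). The exonuclease gene EXO1 (-0.49), the ligase gene LIG1 (-0.36) and the clamp gene PCNA (-0.34), which serve several repair pathways, fell by limma, each under 2-fold. No translesion polymerase gene of 12 with a peak changed by 2-fold.

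Of 29 damage response and cell cycle arrest genes, 1 was at least 2-fold higher and 1 lower. SFN, which encodes 14-3-3 sigma and holds cells in G2, rose from 4.94 and 4.51 to 17.0 and 13.8 CPM (1.60 ± 0.23, adjusted p = 1.91e-08 by limma), with no overlap. GADD45G, a stress gene, fell from 8.19 and 9.91 to 2.93 and 2.22 CPM (-1.64 ± 0.27, adjusted p = 6.53e-07 by limma). MDM2, a ubiquitin ligase gene, fell by 0.80, and CDKN1A, the gene of a cyclin-dependent kinase inhibitor, was not called (0.16, adjusted p = 0.387 by limma), with a call under loess scaling (0.36, adjusted p = 0.0397 by limma). Of 35 apoptosis genes 4 were at least 2-fold higher (11.4%) and 0 lower, against 4.75% and 5.07% over all gene peaks. These were BCL2A1, a survival gene of the BCL2 family (0.26 and 0.515 against 3.04 and 4.91 CPM, 2.32), the death receptor gene TNFRSF10A (2.21 and 1.29 against 6.19 and 7.02 CPM, 1.69), the decoy receptor gene TNFRSF10D (1.19) and the caspase inhibitor gene BIRC3 (1.15). The members differ in role, since TNFRSF10A transmits a death signal and the other 3 oppose one. MCL1, a survival gene, fell by 0.57.

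**Figure D2:**
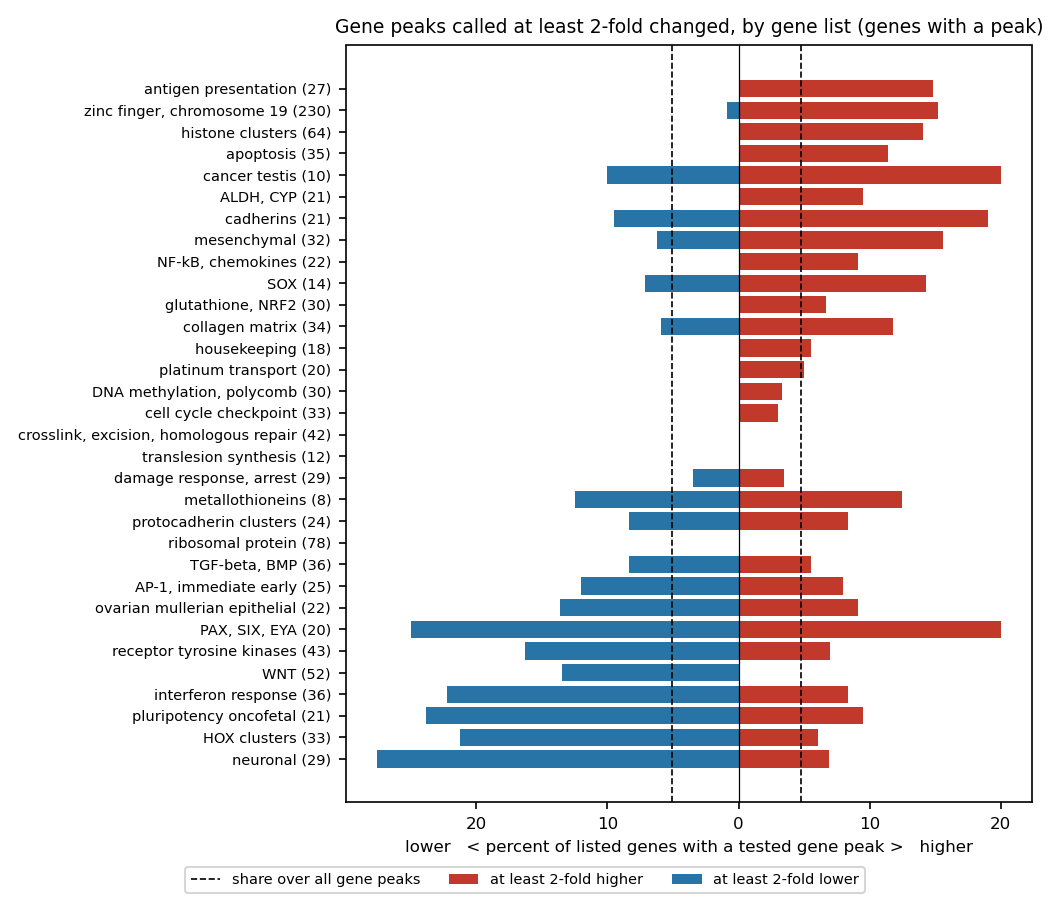
Share of the genes with a peak in the gene lists shown that were at least 2-fold higher or lower in cisplatin-resistant than in control cells, in percent, beside the share over all 15279 genes with a peak (4.75% higher, 5.07% lower). Bars to the right give higher and bars to the left lower genes, the number of genes with a peak stands in brackets, and dashed lines mark the shares over all genes. Zinc finger genes of chromosome 19 reach 15.2% higher, where 25 of the 35 genes passed the level filter only through cisplatin-resistant libraries, which largely set their direction. Interferon genes reach 22.2% lower against 8.33% higher.

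Interferon-stimulated genes included 18 called lower (50%) and 3 called higher (8.33%) by limma, beside 28.6% and 10.8% over all gene peaks. Of 36 interferon genes with a peak 8 were at least 2-fold lower and 3 higher, against 5.07% and 4.75% over all gene peaks. OAS2, which activates the antiviral ribonuclease, fell from 9.62 and 8.88 to 2.25 and 2.22 CPM (-1.83 ± 0.31), IFIT2 from 15.5 and 12.6 to 5.74 and 4.21 CPM (-1.42 ± 0.24) and MX1 from 16.1 and 13.1 to 5.51 and 4.91 CPM (-1.40 ± 0.24). IFITM3 (-1.26), IFI27 (-1.52) and, under 2-fold, the RNA sensor gene RIGI (-0.77) also fell. The DNA-sensing pair went up. CGAS, the sensor of DNA in the cytosol, rose from 1.43 and 0.901 to 13.3 and 12.6 CPM (3.03 ± 0.42, adjusted p = 2.72e-09 by limma), and STING1, its adaptor, from 2.08 and 4.12 to 7.32 and 7.60 CPM (1.20 ± 0.34, adjusted p = 0.0031 by limma). CGAS stood at 0.753 and 0.841 CPM in paclitaxel- and dual-resistant cells. Lower counts of 2-fold were 5 to 9 and higher ones 3 under 8 ways of scaling or testing.

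Of 27 antigen presentation and NKG2D ligand genes, 4 were at least 2-fold higher (14.8%) and 0 lower, against 4.75% and 5.07% over all gene peaks. With smaller changes included 8 were called higher (29.6%) and 4 lower (14.8%) by limma, beside 10.8% and 28.6% over all gene peaks. The balance turned to 5 higher and 9 lower after regional medians were subtracted. Among them HLA-F rose from 1.43 and 0.386 to 6.75 and 5.38 CPM (2.32) and HLA-G from 2.60 and 1.03 to 5.18 and 4.33 CPM (1.27, with no call without control library 2 or without cisplatin-resistant library 1). B2M, the invariant chain of class I molecules, fell from 43.4 and 47.1 to 30.2 and 29.7 CPM (-0.59 ± 0.11), and NLRC5, an activator of class I genes, from 20.9 and 23.8 to 13.4 and 9 CPM (-0.99 ± 0.19). HLA genes are near copies with many alleles, so reads may be split between them or lost.

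Of 52 WNT genes with a peak 19 were called lower (36.5%), 4 higher (7.69%) and 29 not called by limma, beside 28.6% and 10.8% over all gene peaks. Loess scaling gave 11 lower and 6 higher. Against 5.07% lower and 4.75% higher over all gene peaks, 7 of the 52 were at least 2-fold lower (13.5%) and 0 higher. They include the secreted WNT inhibitors SFRP1 (5.07 and 4.76 against 1.35 and 0.702 CPM, -1.86) and DKK3 (11.4 and 12.2 against 3.49 and 6.08 CPM, -1.27) and the ligand WNT16 (10.1 and 6.44 against 1.58 and 2.34 CPM, -1.82). The R-spondin receptor gene LGR5 (-1.37), its ligand RSPO1 (-1.30), WNT3A (-1.31) and the feedback inhibitor NKD1 (-1.04) complete the list, so ligands, receptors and inhibitors are all among them. Of 33 HOX genes 7 were at least 2-fold lower (21.2%) and 2 higher (6.06%), beside the same shares over all gene peaks, and 16 were not called. Most of the lower ones belong to the part of the clusters that acts in the posterior body, with HOXD12 at 4.29 and 3.60 against 1.24 and 0.818 CPM (-1.55) and HOXA10, a regulator of uterine development, at 5.46 and 4.89 against 1.80 and 1.64 CPM (-1.35). HOXD3 (-1.17) is an anterior exception. The higher ones include the anterior gene HOXA4 (1.16).

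Of 21 pluripotency and oncofetal genes 5 were at least 2-fold lower (23.8%) and 2 higher (9.52%), against 5.07% and 4.75% over all gene peaks. Besides LIN28A, the embryonic stem cell gene UTF1 (2.08 and 3.86 against 0.45 and 0.117 CPM, -2.13), the germ cell gene PRDM14 (-1.36) and the telomerase gene TERT (5.98 and 7.85 against 2.48 and 2.10 CPM, -1.40) fell. UTF1 was not called after regional medians were subtracted (-1.06, adjusted p = 0.0642 by limma). It lies with VENTX near the end of chromosome 10, in a region that was lower as a whole, as described below. Of 29 neuronal genes 8 were at least 2-fold lower (27.6%) and 2 higher (6.90%), beside the same shares over all gene peaks. The proneural factor gene NEUROG1 (5.46 and 5.02 against 1.35 and 1.17 CPM, -1.71) and the glutamate receptor genes GRIN2A (-1.15) and GRIN2B (-1.11) were among the lower ones, and SYT1 (1.03) and GAP43 (1.26) were higher.

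Genes of the mesenchymal list held more gains than losses, 5 of 32 at least 2-fold higher (15.6%) and 2 lower (6.25%). The shares over all gene peaks were 4.75% and 5.07%. CTHRC1, a secreted collagen regulator, rose from 1.82 and 0.257 to 12.8 and 13.1 CPM (3.34 ± 0.43) and TNC, which encodes the matrix protein tenascin C, from 2.86 and 2.83 to 15.4 and 18.5 CPM (2.38 ± 0.31). CD44, the hyaluronan receptor gene, rose from 0.26 and 0.515 to 2.70 and 4.33 CPM (2.16 ± 0.48). The groups did not overlap at any of the 3. CDH11 (1.21) and MMP14 (1.04) were the remaining gains, and VIM, which encodes vimentin, rose just under 2-fold from 32.4 and 32.4 to 60.7 and 68.1 CPM (0.98 ± 0.11). The mesenchymal factor genes PRRX1 (-1.18) and FOXC2 (-1.25) fell. In a separate list of 34 collagen and matrix genes, 6 were called higher (17.6%) and 7 lower (20.6%) by limma, beside 10.8% and 28.6% over all gene peaks. At 2-fold or more 4 of them were higher and 2 lower. Of 11 fibroblast markers with a peak 4 were higher (36.4%), 2 lower (18.2%) and 5 not called, beside 10.8% higher and 28.6% lower over all gene peaks. Their summed level was 84.7 and 78.9 CPM in control and 113 and 111 CPM in resistant libraries. The largest gains in mean CPM were at PDGFRB (5.18 to 26.1) and COL1A1 (20.4 to 35.7). The 2 lower ones were PDGFRA (30.9 to 18.6) and COL1A2 (6.02 to 3.32). The summed epithelial markers, 10 of 12 with a peak, went from 64.1 and 65.4 to 51.4 and 51.2 CPM, with 2 called higher (20%) and 3 lower (30%). Some of these peaks, EPCAM among them, lie at a gene end that may not be the start. The drop in the sum was no larger than that of ELF3 alone, from 23.3 and 24.7 to 10.9 and 7.60 CPM (-1.35). The splicing factor gene ESRP1 (-1.79) also fell, and the keratin genes KRT7 (1.77) and KRT8 (5.94 to 11.5 CPM in the means, 0.92) rose. Haematopoietic markers summed to 69.9 and 63.8 against 77.1 and 80.9 CPM and endothelial markers to 13.3 and 18.8 against 18.0 and 17.2 CPM. What part the marker levels have in these lists was not tested.

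Other members of signalling and adhesion families differed one by one. PCDH10, a protocadherin gene, rose from 2.47 and 2.70 to 31.6 and 29.0 CPM (3.32 ± 0.22, adjusted p = 1.58e-24 by limma). TGFBR2, the type II TGF-beta receptor gene, rose from 11.0 and 8.62 to 21.8 and 24.2 CPM (1.19 ± 0.28), whereas paclitaxel- and dual-resistant cells had means of 1.80 and 1.47 CPM, below control. SOX9 showed the same order, from 4.55 and 5.41 to 14.6 and 13.7 CPM (1.42 ± 0.35) beside means of 0.692 and 0.986 CPM in the other resistant lines. HAPLN1, which links hyaluronan to proteoglycans, went the opposite way, from 7.80 and 7.08 to 2.25 and 1.52 CPM (-1.75 ± 0.18) beside 49.2 and 38 CPM in the other resistant lines. MST1R, a receptor kinase gene, rose from 1.95 and 1.42 to 7.99 and 10.9 CPM (2.18), and ALDH1L1, a folate enzyme gene, from 1.30 and 0.644 to 8.89 and 5.26 CPM (2.36). ALDH1A1, a stem cell marker in ovarian cancer, was near the level of 3 reads in both groups and was not called (-0.34, adjusted p = 0.644 by limma), with a call under loess scaling (-1.24, adjusted p = 0.0458 by limma). None of 78 ribosomal protein genes changed by 2-fold.

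Zinc finger genes of chromosome 19, which sit in tandem clusters and many of which encode KRAB repressors of transposable elements, had a small set of large gains among many small losses. Of 230 with a peak, out of 260 listed by name, 35 (15.2%) were at least 2-fold higher and 2, ZNF439 and ZNF574, at least 2-fold lower, against 4.75% and 5.07% over all gene peaks. The 35 had a median of 0.645 CPM in control cells, and 31 of them were under 1 CPM, compared with 5.51 CPM in cisplatin-resistant cells (2.87 to 14.2). In the paclitaxel- and dual-resistant lines their medians were 0.468 and 0.508 CPM. ZNF93, whose product represses L1 elements, rose from 1.04 and 0.257 to 11.1 and 10.2 CPM (3.37 ± 0.46), and ZNF432 from 0.78 and 0 to 10.9 and 7.37 CPM (3.57 ± 0.49). The groups were apart at each of these genes. The 193 zinc finger genes of chromosome 19 that were not called at 2-fold had medians of 30.9 CPM in control and 24.9 CPM in cisplatin-resistant cells, and 2 and 1 of them were under 1 CPM. Gains were not particular to chromosome 19, since 22 of 257 zinc finger genes of other chromosomes (8.56%) were at least 2-fold higher and 7 lower.

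Of the 35, 32 were higher than in the dual-resistant and 33 than in the paclitaxel-resistant line. ZNF525 (25.5 CPM in paclitaxel- and 32.0 CPM in dual-resistant cells) and ZNF493 (17.8 and 17.0 CPM) were higher still in the other resistant lines, and ZNF772 had 3.47 CPM in dual-resistant cells. The level filter bears on this count, because 25 of the 35 reached 1 CPM in 2 libraries only through the cisplatin-resistant libraries, which largely set their direction. Without all such peaks, 10 of 204 zinc finger genes of chromosome 19 (4.90%), 13 of 248 of other chromosomes (5.24%) and 575 of 15112 genes overall (3.80%) were at least 2-fold higher. Of all 372 gene peaks under 1 CPM in control, 263 were at least 2-fold higher, but a peak that low in control entered the test only by being higher elsewhere, and 155 of the 372 did so only through cisplatin-resistant libraries, so nothing is read from that count. Median CpG content of the promoters, observed over expected, was 0.734 for 29 of the 35 with sequence and 0.765 for 175 of the 193 others. Over 8 ways of scaling or testing the 2-fold counts were 29 to 38 higher and 0 to 3 lower. The small losses did not hold in the same way. As fitted 36 calls were higher (15.7%) and 79 lower (34.3%), beside 10.8% and 28.6% over all gene peaks. After regional medians were subtracted 47 were higher and 21 lower. Zinc finger genes of a cluster resemble each other, and reads may be split between copies.

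**Figure D3:**
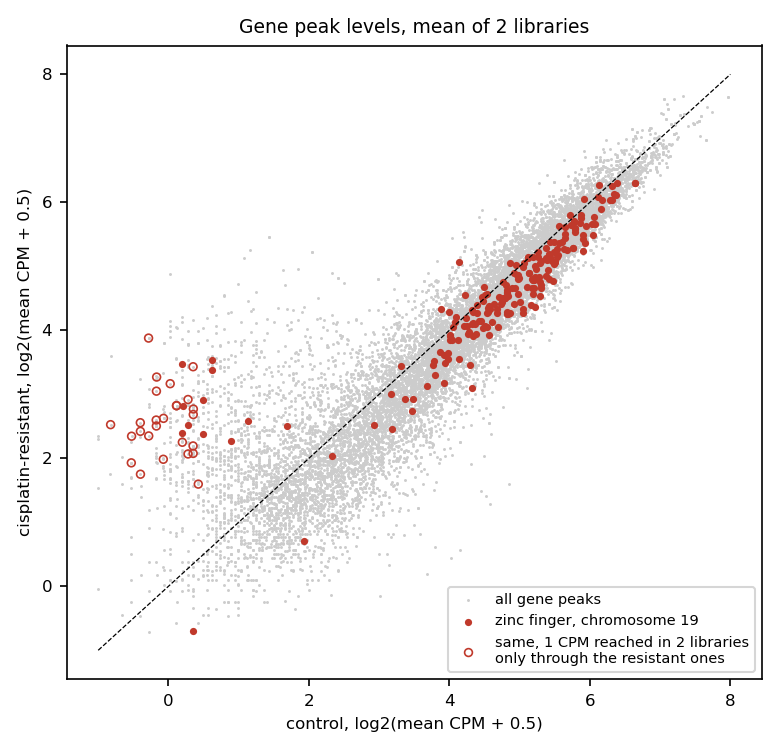
Mean level over 2 libraries of every gene peak in control cells (horizontal axis) and cisplatin-resistant cells (vertical axis), as log2(mean CPM + 0.5), with grey points for all 15279 genes and red ones for the zinc finger genes of chromosome 19. The 35 zinc finger genes at least 2-fold higher sit at the left, with a control median of 0.645 CPM, and most are open circles, which mark peaks that reached 1 CPM in 2 libraries only through cisplatin-resistant libraries. The dashed line marks equal levels.

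Replication-dependent histone genes, which lie in a large cluster on chromosome 6 and a smaller one on chromosome 1, differed by cluster. Of 51 genes on chromosome 6, on 37 distinct peaks, 26 were higher and 3 lower (median 0.29), and 9 were at least 2-fold higher. Of 13 genes on chromosome 1, on 9 peaks, 0 were higher and 11 lower (median -0.34). The chromosomes differed too. Over all gene peaks the median was -0.0016 on chromosome 6 (144 of 787 higher, 99 lower) and -0.29 on chromosome 1 (107 of 1584 higher, 659 lower). H2BC3 rose from 1.17 and 1.54 to 19.6 and 18.2 CPM (3.39 ± 0.39, adjusted p = 2.84e-12 by limma) and its neighbour H3C3 from 0.78 and 1.42 to 15.1 and 17.5 CPM (3.42 ± 0.44). Both were below 1 CPM in the other resistant lines. H3C12 rose from 3.90 and 3.09 to 11.4 and 14 CPM (1.72 ± 0.16), with 68.5 and 39.7 CPM in paclitaxel- and dual-resistant cells. Histone genes are near-identical copies, so single members are uncertain. As fitted, 26 of the 64 genes of both clusters were higher (40.6%) and 14 lower (21.9%, median 0.18), beside 10.8% and 28.6% over all gene peaks. With chromosome medians subtracted 17 were higher and 11 lower (median 0.08), and 5 were at least 2-fold higher and 0 lower.

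Of 63481 peaks outside genes 35.1% were called, near the 33.2% over all peaks, and near some genes runs of neighbouring peaks changed together. Distal peaks lie over 1 kb but within 100 kb of the nearest protein-coding gene, and the genes with the most higher or lower ones are described. Near HGF, which encodes hepatocyte growth factor, 26 of 42 distal peaks rose and 3 fell, with a mean level that went from 7.52 and 7.09 to 14.5 and 15.2 CPM. The HGF promoter itself did not follow (-0.27, adjusted p = 0.0739 by limma). Near SPRED1, an inhibitor of RAS signalling, 23 of 37 were higher and 0 lower, from 4.12 and 4.14 to 9.12 and 9.89 CPM, with the promoter at -0.16 (adjusted p = 0.327 by limma). At MEIS1, a homeobox cofactor gene, 22 of 29 were higher and 0 lower, from 9.37 and 8.95 to 16.9 and 18.6 CPM, and the promoter rose too (0.68). PI15 had 24 of 42 distal peaks higher and 1 lower, from 7 and 7.28 to 14 and 15.4 CPM. The PI15 mean was 0.425 and 0.428 CPM in paclitaxel-resistant and 0.5 and 0.566 CPM in dual-resistant libraries, so that region was nearly shut in them and open in control and cisplatin-resistant cells.

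Among the 4 genes with the most lower distal peaks, the largest share was lower in a stretch of 92.7 kb on chromosome 1 near GPATCH2, where 26 of 27 distal peaks were lower and 0 higher, with a median difference of -3.23. Mean level fell from 15.2 and 15.4 to 1.06 and 1.10 CPM, and it was 1.13 and 1.03 CPM in paclitaxel-resistant and 1.18 and 0.935 CPM in dual-resistant libraries, so the control line stood alone. The shared promoter of GPATCH2 and SPATA17 changed little (-0.33 ± 0.11, adjusted p = 0.0128 by limma) and its call was lost under 5 scalings and turned to 0.616 after subtraction of the regional median. At RHOU, a GTPase gene, 22 of 27 distal peaks were lower and 1 higher, from 25.2 and 24.1 to 12.1 and 10.9 CPM, while paclitaxel-resistant libraries had 27.8 and 26.7 CPM and dual-resistant libraries 28.3 and 27.8 CPM. The RHOU promoter fell with them, from 24.7 and 24.7 to 7.99 and 9.71 CPM (-1.44 ± 0.15). Near CXXC4, 23 of 42 were lower and 4 higher, and near FRG2 21 of 24 were lower and 0 higher. FRG2 belongs to a family of near-identical copies by the chromosome ends, so its reads may be shared.

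The single peaks with the largest differences changed by over 5 on the log2 scale. A peak inside SLCO2A1, a prostaglandin transporter gene, at chr3:134008558-134009558 went from 0 and 0.129 CPM to 29.7 and 25.0 CPM (5.63 ± 0.42). One outside genes nearest to TDRD3 at chr13:60351151-60352151 went from 0.78 and 0.772 to 58.1 and 66.2 CPM (5.61 ± 0.33). In the other direction, a peak nearest to HACE1 at chr6:104684628-104685628 fell from 52.9 and 50.5 to 0.563 and 0.351 CPM (-5.78 ± 0.17), and one inside PPP2R2B at chr5:146704694-146705694 from 31.7 and 32.0 to 0.225 and 0 CPM (-5.75 ± 0.32). The HACE1 peak was open in paclitaxel-resistant (61.6 CPM) and dual-resistant cells (22.8 CPM), and the PPP2R2B peak in dual-resistant cells alone of the resistant lines (15.2 CPM, against 0.524 CPM with paclitaxel). In total 526 peaks went from at most 3 reads in both control libraries to at least 5 CPM in both resistant libraries. Of these, 5 were promoter peaks, 253 lay inside genes and 268 outside. The reverse held for 70 peaks.

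**Figure D4:**
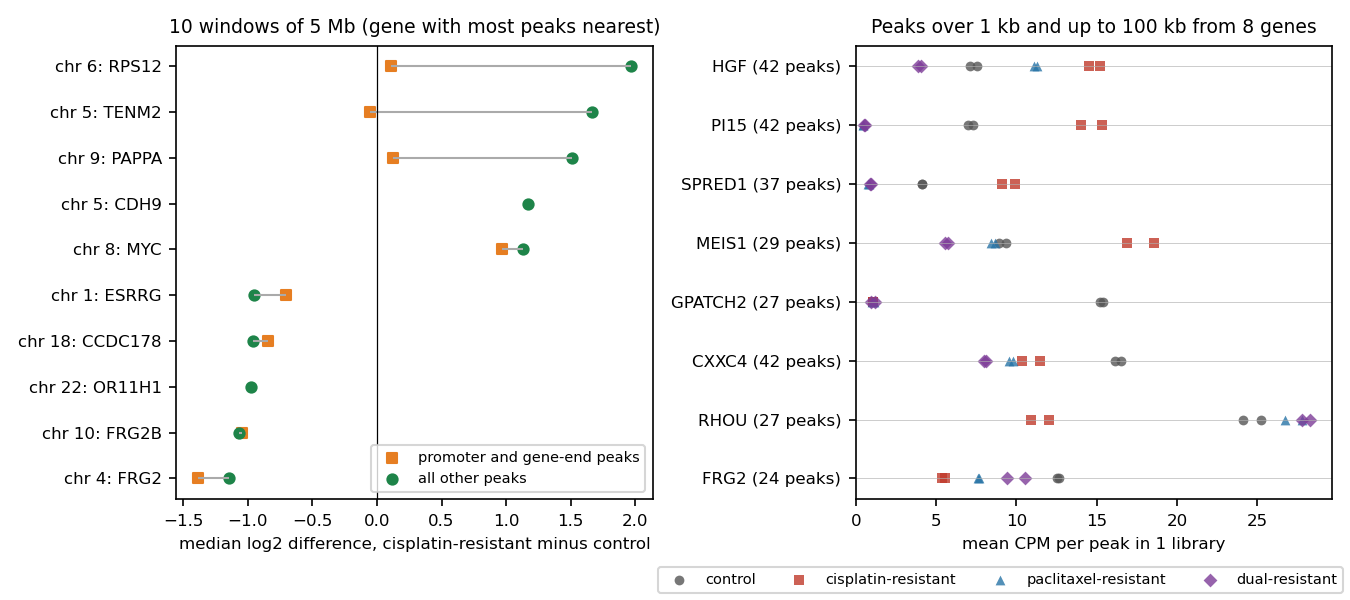
Median log2 difference between cisplatin-resistant and control cells in the 5 highest and 5 lowest windows of 5 Mb (left), with promoter and gene-end peaks as squares and all other peaks as circles, and mean CPM per distal peak in each library at 8 genes (right). Each window is named by its chromosome and the gene with the most peaks nearest to it. In the first window, on chromosome 6, the other peaks stand at 1.97 and the gene peaks at 0.11, and near GPATCH2 the control libraries lie alone at 15.2 and 15.4 CPM.

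Over windows of 5 Mb, 41 of 590 had a median above 0.5 and 37 below -0.5. The highest was chromosome 6 from 130 to 135 Mb, with a median of 1.77 and 90 higher and 2 lower of 148 peaks, and it holds EYA4, SGK1 and CCN2. Its 132 peaks away from promoters had a median of 1.97 and its 16 gene peaks one of 0.11. A similar gap was seen on chromosome 5 from 165 to 170 Mb (1.67 and -0.06) and on chromosome 9 from 115 to 120 Mb, which holds TNC (1.51 and 0.12). On chromosome 8 from 125 to 130 Mb, which holds MYC, both kinds were raised (1.13 and 0.97), and the summed level went from 1210 and 1224 to 3248 and 3165 CPM, 2.63 times control. The same sum was 0.98 and 0.994 times control in paclitaxel- and dual-resistant cells. MYC itself rose from 44.6 and 37.8 to 89.4 and 81.6 CPM (1.05 ± 0.10), and its difference was -0.07 after the regional median was subtracted.

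At the lower end, chromosome 10 from 130 to 135 Mb had a median of -1.05 over 41 gene peaks and -1.07 over 340 other peaks, and its sum went from 2982 and 3005 to 1462 and 1481 CPM, 0.492 times control. The dual-resistant line had 0.856 and the paclitaxel-resistant line 0.684 times control there. Chromosome 18 from 30 to 35 Mb fell alike in gene peaks (-0.84) and others (-0.96). DNA copy number was not measured, and at these regions a change in copy number and a change in accessibility cannot be told apart. Whole chromosomes ranged from a median of -0.32 on chromosome 18 to 0.33 on chromosome 8.

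Promoters that gained accessibility differed from others in sequence. RefSeq sequence, 250 bases before to 50 after the start, was read for 15812 genes. TGANTCA on either strand was present in 5.97% of all 15812, in 16.8% of the 546 promoters that rose by at least 2-fold and in 4.12% of the 582 that fell by at least 2-fold. It was present in 10.8% of all 1193 promoters called higher, 3.48% of 3561 called lower and 4.27% of those not called. CpG content differed too, with a median observed over expected ratio of 0.506 in promoters at least 2-fold higher and 0.717 in those at least 2-fold lower. It was 0.826 in tested promoters not called. Over all 15812, which include those without a tested peak (0.244), it was 0.756. These features overlap, and the share was therefore taken within CpG classes. Among promoters with a ratio under 0.4, 29.6% of 213 with TGANTCA and 12% of 1426 without it were at least 2-fold higher, and 5.16% and 9.12% at least 2-fold lower. From 0.4 to 0.6 the higher shares were 13.1% and 6.98%, from 0.6 to 0.8 they were 9.43% and 3.42%, and at 0.8 and over 5.85% and 1.93%. The lower shares had no common order, with 7.55% with the letters and 5.13% without from 0.6 to 0.8.

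The gap was also present among peaks that did not depend on the cisplatin-resistant libraries to pass the level filter. Without those that passed only through cisplatin-resistant libraries, 26.5% of promoters under 0.4 with the letters and 9.75% of those without were at least 2-fold higher, and their control medians were 2.65 and 3.82 CPM. HRH1 and SFN, described above, carry the letters. F2RL2, a thrombin receptor family gene, went from 0.52 and 1.42 to 16.8 and 18.6 CPM (3.70 ± 0.41, adjusted p = 7.12e-13 by limma), and ANKRD1, a stretch-responsive gene, from 1.69 and 0.901 to 15.5 and 11.7 CPM (3 ± 0.41, adjusted p = 2.3e-09 by limma). Of the AP-1 subunit and immediate early genes, 2 of 25 were at least 2-fold higher (8%), JUN from 23.3 and 20 to 58.1 and 58.5 CPM (1.41 ± 0.13) and MYC. Another 3 were at least 2-fold lower (12%), among them BATF3. The shares over all gene peaks were 4.75% and 5.07%. After regional medians were subtracted 0 of the 25 were at least 2-fold higher and 2 lower. Shares over promoters are descriptions, since promoters are not independent replicates, and the groups of 2 libraries are those of every comparison above.

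**Figure D5:**
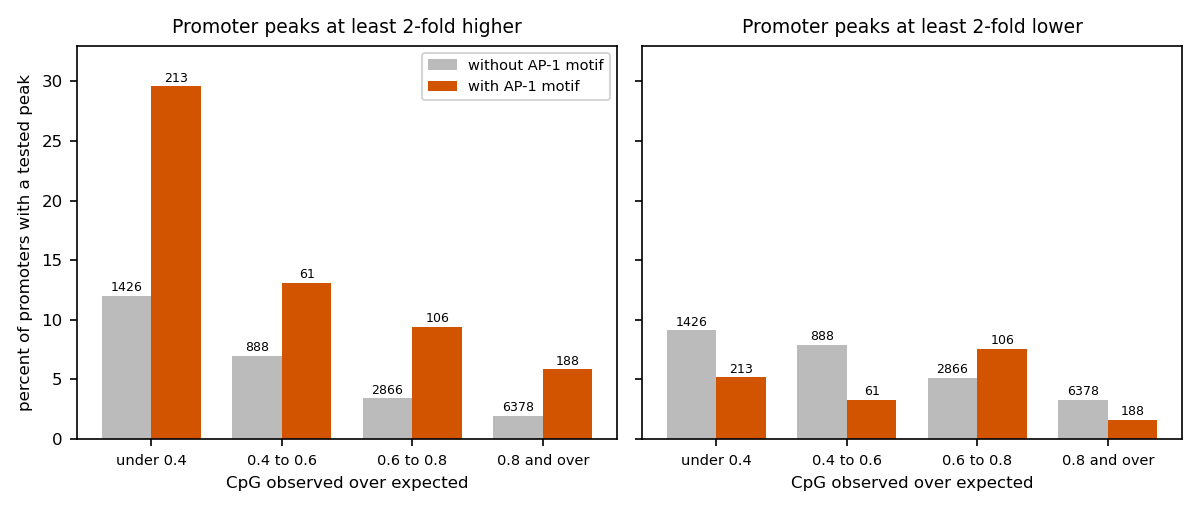
Share of promoters with a tested peak that were at least 2-fold higher (left) or lower (right) in cisplatin-resistant cells, in percent, by CpG observed over expected class, with and without the letters TGANTCA. Numbers above the bars give the promoters in each class. On the left the bar with the letters is the higher one in each class, from 29.6% against 12% under 0.4 to 5.85% against 1.93% at 0.8 and over.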

How the data were processed

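ATAC-seq was deposited as a matrix of CPM values over 159451 consensus peaks of 1001 bp on hg38, per the file headers, with 2 libraries in each of 4 groups. Per the submitters' processing notes the tools include MACS2, Bowtie2 and Picard, with no role, version or setting given. The deposited CPM values sum to the same total in each library, so a change shared by all peaks cannot be seen. In each library 100% of the values were whole multiples of 1 read within 0.01 read.

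The 158698 peaks that reached 1 CPM in 2 or more libraries were fitted as log2(CPM + 0.5) with limma 3.58.1 in R 4.3.3, all 4 groups together, with the variance modelled on mean level (98.5 prior and 4 residual degrees of freedom), and adjusted over all tested peaks by Benjamini-Hochberg with calls under 0.05. The small SE rests on the spread pooled over all peaks. A fold on this scale understates changes of weak peaks. Genes were placed with RefSeq tables of GRCh38.p14, which give a start for 15812 protein-coding genes. A single start was kept per gene, and 76.6% of these lay at the end of the gene span. The gene peak may therefore miss other promoters of a gene. For the others the strand was not used and the peak may lie at the far end of the gene. Exons, introns and UTRs were not resolved.

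Named genes were the 16 higher and 16 lower called gene peaks with the largest differences, separate libraries and at least 5 CPM in the higher group, up to 4 called members per gene list with a difference of at least 1, genes with the most called distal peaks, the 5 strongest peaks per direction, 12 fixed genes and the 5 most extreme windows per direction. Some genes that this rule names are not reported here. Other members named were chosen after their values were seen. The members and lists were chosen with earlier results of these data known. Alternatives were other scalings (quantile, median-ratio, loess, and subtraction of 5 Mb or chromosome medians), pseudocounts of 0.1 and 1, a filter of 5 CPM or none, only the groups compared, a 2-fold rule, each library left out, the replicate block, and edgeR 4.0.16 on the recovered whole reads, which called 27852 peaks higher and 22501 lower. edgeR with TMM was added after seeing the data. The fit was tested on simulated data.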

Additional observations from a re-analysis of the deposited data

Results flagged for a closer look

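Most genes reported above for the largest differences from control, 14 of 14 higher and 13 of 15 lower, also differed between the cisplatin-resistant and the dual-resistant line by limma, although both lines are labelled with cisplatin. Values are log2 differences, cisplatin-resistant minus dual-resistant. They share the cisplatin-resistant libraries by which the genes were chosen, so a difference in the same direction is in part set by that choice.

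Receptor and tissue genes were higher in the cisplatin-resistant line by 4.72 at LY6K, 3.17 at HRH1, 4.07 at SOX30, 4.07 at TBX18, 4.06 at ANXA13, 3.95 at HSPA2, 3.95 at KLHL31, 3.38 at SLA and 2.80 at LEKR1. The zinc finger genes were higher by 4.28 at ZNF559, 3.99 at ZNF300 and 3.79 at ZNF454. All of these zinc finger genes reached 1 CPM in 2 libraries only through the cisplatin-resistant ones, so the level filter largely set that direction. CAVIN3 (0.97) and ZNF354C (0.96) differed least among the higher genes, and the dual-resistant line had 8.54 and 9.09 CPM there.

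Of the genes lower than control, HTR2B differed most of those reported, at -3.26. LIN28A followed at -3.21, DNMBP at -2.92, FSIP2 at -2.88, PAX2 at -2.86, ZNF75D at -2.66, UNC13C at -2.39 and VENTX at -2.09. Smaller differences were found at PF4V1 (-1.39), PLSCR2 (-1.26), KIF1A (-1.14), TLX3 (-0.69) and CROCC (-0.63), where the dual-resistant line was below control as well.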

How the results depend on the processing

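Counts of calls depended on scaling more than named genes did. Most named genes were chosen from the main fit for large differences, so their stability is in part set by that choice. Gene peaks called lower numbered 4374, and 2677 with median-ratio, 2046 with loess, 2784 after subtraction of window medians and 2900 of chromosome medians. Gene peaks called higher numbered 1651, and 2510 with loess. A 2-fold rule left 12537 lower peaks, 725 higher and 774 lower gene peaks. A filter of 5 CPM left 15165 higher and 17678 lower peaks, which turned the balance, and 16494 higher and 19839 lower against the dual-resistant line. Against that line 21870 were lower after window medians were subtracted. The cause was not tested, except that the filter leaves fewer peaks. Quantile scaling gave 27158 higher and 29533 lower peaks, median-ratio scaling 31891 and 17921, and edgeR with TMM 29702 and 18488.

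Leaving out 1 library at a time gave 22429 to 24005 higher and 15717 to 17752 lower peaks, 1270 to 1327 higher and 2909 to 3408 lower gene peaks, and 25259 to 26297 higher and 24309 to 26302 lower peaks against the dual-resistant line. The lone library is then assumed to vary like those of the other groups. The lowest count of lower peaks (15717) came without control library 2 and that of lower gene peaks (2909) without control library 1.

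Replicate numbers did not pair the libraries, with correlations of deviations from -0.0006 to 0.0033. With the replicate block 29195 peaks were higher and 23803 lower, 1649 and 4373 gene peaks, and 31568 and 34922 peaks against the dual-resistant line.

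Of 146 named items, 116 kept direction and call under all 17 alternatives, where the filter of 5 CPM covered 124 of them. Signs turned after window medians were subtracted at MYC (-0.0675), GPATCH2 (0.616) and ERCC1 (0.024), and at ERCC1 after chromosome medians were (0.00295). With 2 libraries a group and a floor of 3 reads near 0.39 CPM, levels under 1 CPM rest on a few reads.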
